A study of Mus musculus with 4 samples.

Results

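The cytosolic ribosomal protein genes encode the proteins of the ribosomes that translate nuclear-encoded mRNA, and their levels were described here in mouse regulatory T cells, a CD4+ lineage that suppresses other immune cells. A gene was included if GENCODE mouse release 21 lists it as protein-coding and its symbol is an Rpl or Rps symbol with a number, or Rplp0, Rplp1, Rplp2 or Rpsa. This naming rule used no measured value, although the members were chosen with earlier results of these data known. It took 83 of the 50600 genes in the deposited count tables: 31 of the small subunit, 46 of the large subunit and 6 paralogues (Rpl3l, Rpl7l1, Rpl10l, Rpl22l1, Rpl39l and Rps27l). RNA was sequenced in 4 libraries that form 1 group: primary regulatory T cells of mouse strain C57BL/6NJ, numbered in the labels as biological replicates 1 to 4. The labels give no treatment, genotype or sex and list the age as unknown. A differentiation protocol for CD4+ T cells is linked, and the words activated and 24h stand in the output names of the headers. The assay is called total RNA-seq, while the linked library protocol is named for polyA+ RNA. All 4 libraries carry 1 donor identifier, and no label says that they came from separate animals or cultures. Every SD and p-value below thus measures only the spread between these libraries. With 1 group, no contrast between conditions could be tested.

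Library totals ran from 38590127 to 93035969 fragments. Of 11 T cell and regulatory T cell markers, 10 had a mean of at least 10 TPM (fragments divided by gene length and scaled to a common library total), among them Foxp3, the lineage-defining transcription factor, at 109 ± 14.5 (SD, n = 4). Ikzf2, which encodes Helios, was the exception at 4.32 ± 0.788. This depends on the gene length used: with transcript lengths, described further on, Ikzf2 was at 19.4 TPM. Of 22 markers of other cell types, 5 reached a mean of 1 TPM, 1 reached 10 (Cd8b1, 21.8 ± 4.19) and 8 had no fragment in any library. Their summed level was between 23.4 and 31.7 TPM per library. Libraries 1 and 2 stood apart from 3 and 4 in Xist, the noncoding RNA of X inactivation (100.4, 88.7, 0.716 and 0.603 TPM in replicates 1 to 4). Whether libraries 1 and 2 came from other animals than 3 and 4 was not tested, and the labels give no sex. In replicate 1, Gm42418, an annotated locus that overlaps ribosomal RNA sequence, took 2.04% of the fragments, against 0.0704% to 0.175% in the other three libraries.

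A cytosolic ribosome is built from ribosomal RNA and about equal numbers of most ribosomal proteins. Its small subunit decodes the mRNA and its large subunit forms peptide bonds. Most ribosomal protein mRNAs begin with a terminal oligopyrimidine (TOP) tract, a run of C and T bases at the transcription start through which growth signalling adjusts their translation. T cells that are activated enlarge and divide, and ribosome production is part of that growth. In bulk RNA, more RNA per cell and more cells that express a gene cannot be told apart.

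The starts of 63 of the 83 genes matched an entry among the RefSeq promoters (build GRCm38.p6), and 42 of these lie within 50 bp of the GENCODE start. In the 30 bases around the RefSeq start, 15 on each side, an unbroken pyrimidine run of at least 8 bases on the sense strand was found in 25 of the 63 (39.7%). It was found in 925 of 8228 other protein-coding genes with a mean of at least 1 TPM (11.2%) and in 11.6% of all 16365 promoters matched. With a run of at least 6 bases the shares were 54.0%, 27.1% and 28.5%. The windows below show 5 genes with a long run and 3 highly expressed genes with a short one, each 5′ to 3′ on the gene's own strand, with the longest run in capitals. They were chosen from the genes this text names after the runs had been seen.
Rpl4 (chr9:64173372-64173401, plus strand): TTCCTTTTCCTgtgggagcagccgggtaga
Rpl13a (chr7:45128731-45128760, minus strand): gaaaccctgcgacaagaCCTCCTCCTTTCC
Rps6 (chr4:86857353-86857382, minus strand): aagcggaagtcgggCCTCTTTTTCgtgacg
Rps27 (chr3:90213634-90213663, minus strand): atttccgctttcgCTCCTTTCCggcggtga
Rps27l (chr9:66946071-66946100, plus strand): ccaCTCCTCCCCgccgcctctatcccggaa
Rplp0 (chr5:115559452-115559481, plus strand): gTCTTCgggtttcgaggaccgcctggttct
Rps2 (chr17:24720048-24720077, plus strand): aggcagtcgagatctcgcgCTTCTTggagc
Rps4x (chrX:102189377-102189406, minus strand): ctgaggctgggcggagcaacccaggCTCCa
The run was 11 bases in Rpl4, 13 in Rpl13a, 10 in Rps6 and 9 in both Rps27 and Rps27l. It was 5 bases in Rplp0, 6 in Rps2 and 4 in Rps4x, although these are among the most abundant members. A run in this window is a match of letters, not a mapped TOP tract.

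In addition, 5 short motifs were searched on both strands of the RefSeq promoters, from 250 bases before the start to 50 after it. CCGGAA, the core bound by ETS family factors, was in 52.4% of the 63 promoters, in 32.5% of the other expressed genes' promoters and in 3266 of all 16365. AANATGGC, the YY1 motif, was in 19.0%, 9.84% and 6.79%. The remaining motifs were GGGCGG, the SP1 and KLF box, with 60.3%, 67.8% and 48.5%, TATAAA, the TATA box, with 9.52%, 6.09% and 12.9%, and CACGTG, the E box bound by MYC, with 7.94%, 10.9% and 8.14%. No motif contains another, and a match says nothing of binding.

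The ribosomal protein genes held 10.9%, 12.1%, 11.8% and 12.2% of all TPM in replicates 1 to 4, a mean of 11.7 ± 0.574% (SD, n = 4), and 5.47 ± 0.183% of the fragments. Replicate 1 was the lowest. Among protein-coding genes alone, which leaves out Gm42418, the share was 12.4%, 12.7%, 12.2% and 12.6%, and replicate 1 was then within the range of the others. The median member was at 892, 1019, 964 and 1050 TPM in the 4 libraries (981 ± 69.4), against 29.4 to 32.1 for the protein-coding genes with at least 1 TPM. Of the 83 genes, 81 had a mean of at least 1 TPM, 80 of at least 10, 79 of at least 100 and 40 of at least 1000. They made up 10 of the 20 most abundant protein-coding genes, 24 of the top 50 and 40 of the top 100.

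The levels of the 77 genes that are not paralogues ran from 91.1 TPM (Rpl24) to 9146 TPM (Rplp1). The ends were 100-fold apart with the exon union length and 66.0-fold with transcript lengths. Most of the proteins are nevertheless used in about equal numbers. The lower end rests on Rpl24 alone, which an annotated gene overlaps, and the next gene, Rps15a, was at 205 TPM. The 90th percentile was 8.16 times the 10th. The 12 most abundant genes held 44.7% of the members' TPM, 7 from the large subunit and 5 from the small. Over the 80 genes with a mean of at least 10 TPM, the SD of log2(TPM + 1) between genes was 1.31 ± 0.0238 in the 4 libraries, and over mitochondrial ribosomal protein genes at the same minimum it was 1.15 ± 0.0173.

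**Figure D1:**
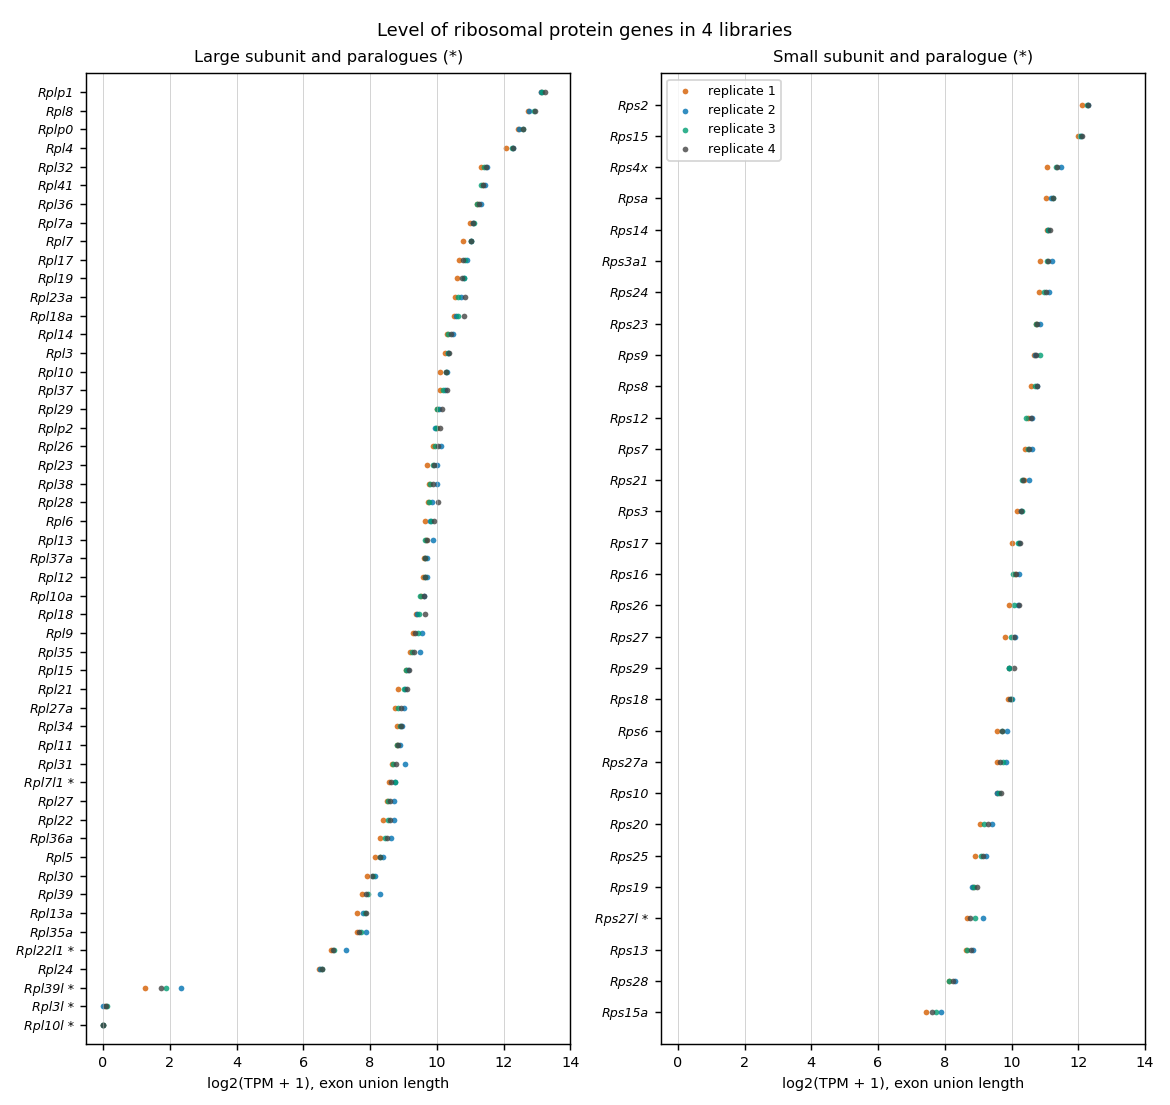
Each row is a gene (81 are drawn) and each point a library (colours, replicates 1 to 4), on a log2(TPM + 1) axis, with the large subunit on the left, the small subunit on the right and paralogues starred. Libraries of a gene lie close together beside the distance between genes: the mean levels reach from 9146 TPM (Rplp1) to 91.1 TPM (Rpl24), and Rpl39l, Rpl3l and Rpl10l lie far below all others.

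The acidic P proteins form the stalk of the large subunit that recruits elongation factors, and Rplp0 anchors it. Rplp1 (chr9:61913284-61914542, mm10) was the most abundant member at 8852, 8976, 9062 and 9694 TPM in replicates 1 to 4 (9146 ± 375), the second most abundant protein-coding gene of all. Rplp0 was at 5501, 5640, 6100 and 6137 TPM (5844 ± 322). Rplp2, whose protein pairs with that of Rplp1 in the stalk, was at 1017, 991, 1012 and 1092 TPM (1028 ± 44.0). The 3 stalk genes did not overlap in any library: Rplp1 was above Rplp0 and Rplp0 above Rplp2 in all 4. The distance to Rplp2 depends on the gene length used, as described further on.

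Rpl8, a large subunit protein near the peptidyl transferase centre, was second by exon union length at 6852, 6933, 7631 and 7787 TPM (7301 ± 477). Rps2, at the mRNA entry of the small subunit, and Rpl4, a core large subunit protein that lines the exit tunnel, followed at 4822 ± 299 and 4778 ± 297 TPM. Their means differ by less than the SD of either, although Rps2 was slightly above Rpl4 in all 4 libraries. Rps15 was at 4057, 4300, 4223 and 4399 TPM (4245 ± 145). Rpl32 (2759 ± 142), Rpl41 (2669 ± 85.6), Rps4x (2538 ± 305) and Rpl36 (2429 ± 105) were also among the first 12, and each differs from the next of these 4 by less than the larger of their SDs. Rpl41 encodes a very short peptide at the interface of the subunits.

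Rps6, the small subunit protein phosphorylated by the S6 kinases downstream of mTOR, was at 754, 931, 836 and 840 TPM (840 ± 72.1). Replicate 2 was the highest and replicate 1 the lowest. Rps19, needed for maturation of the small subunit, was lower at 463, 446, 469 and 496 TPM (468 ± 20.5), below Rps6 in every library. With transcript lengths in place of exon unions the order is reversed, with Rps19 at 1851 and Rps6 at 990 TPM. Rps14, which lines the decoding region near the mRNA exit, was at 2138, 2190, 2162 and 2266 TPM (2189 ± 55.6), and Rps3, at the mRNA entry, at 1134, 1250, 1258 and 1252 TPM (1223 ± 59.9). Rpsa, also known as the laminin receptor precursor, was at 2096, 2318, 2425 and 2411 TPM (2313 ± 152). Rps27a, whose product carries ubiquitin at its N terminus, was at 756, 914, 858 and 811 TPM (835 ± 67.3).

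Rpl5 and Rpl11 form, with the smallest ribosomal RNA, the particle that also binds MDM2 when ribosome assembly is disturbed, and Rpl23 is a further MDM2 binder. Rpl5 was at 280, 332, 311 and 311 TPM (309 ± 21.2) and Rpl11 at 442, 480, 445 and 456 TPM (456 ± 17.3). These were among the lower members, ranked 72 and 65 of 83, and Rpl11 was above Rpl5 in all 4 libraries. Rpl23 was at 838, 1033, 946 and 965 TPM (946 ± 80.5). Rpl10, which joins the large subunit last and completes its active site, was at 1092, 1265, 1237 and 1227 TPM (1205 ± 77.4). Rpl38, known for its part in the translation of homeobox mRNAs in the embryo, was at 877, 1019, 891 and 942 TPM (932 ± 64.2). Rpl13a, also studied as a regulator of inflammatory mRNA translation, was at 195, 219, 227 and 232 TPM (218 ± 16.4), the rank 76 of 83.

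Of the 83 genes, 4 are on the X chromosome: Rps4x, Rpl10, Rpl36a and Rpl39. Rps4x was at 2114, 2843, 2587 and 2608 TPM (2538 ± 305), and Rpl36a at 316, 397, 351 and 360 TPM (356 ± 33.2). In all 4 X-linked genes replicate 1 was lowest and replicate 2 highest. The 2 libraries with Xist above 80 TPM thus lay at opposite ends. This order is not particular to X-linked genes: Rps6 and Rpl23, on other chromosomes, had the same extremes. All of these genes kept both extremes after TMM scaling. On that scale, replicate 2 was highest in 46 of the 81 members tested, against 3530 of all 12396 genes (28.5%). Replicate 1 was lowest in 28 of the 81, against 3517 of all 12396 (28.4%).

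By mean log2 level and by median, the small subunit genes were higher than those of the large subunit. Over 32 small and 48 large subunit genes with a mean of at least 10 TPM (paralogues included), the mean log2(TPM + 1) differed by 0.450, 0.469, 0.465 and 0.461 in replicates 1 to 4, or 0.461 ± 0.00800 (SD, n = 4). The SD is small because it is over the same genes in each library and does not cover the choice of genes. Median mean levels were 1223 TPM for the 31 small subunit genes, with a range from 205 (Rps15a) to 4822 (Rps2), and 908 TPM for the 46 large subunit genes, with a range from 91.1 to 9146. The ranges overlap almost throughout. Without Rpl24 and Rpl13a, which annotated genes overlap on the same strand, the log2 difference was 0.348. Summed TPM, in which the most abundant genes weigh most, was 4.82% of the total for the 31 small subunit genes. For the 46 large subunit genes it was 6.82%.

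The lengths used for TPM change single genes more than the list. The deposited length is the union of all annotated exons, which in 44 of the 83 genes is at least 2 times the median length of the gene's protein-coding transcripts: its median was 1726 bp against 774 bp. Dividing by transcript length, over protein-coding genes alone, put the members at 14.4 ± 0.281% of TPM and their median at 1453 TPM. Rps3 then went from 1223 to 3757 TPM and Rplp2 from 1028 to 3098 TPM. Rps12, chosen after its values were seen, went from 1471 to 3958 TPM. Rplp1 remained first at 5970 TPM, followed by Rps2 at 5763, Rplp0 at 4657 and Rpl8, no longer second, at 4388, while Rpl24 stayed lowest of the genes that are not paralogues at 90.5 TPM. Of the 12 most abundant genes, 9 were in the top 12 under both lengths, and over the 77 genes the Spearman correlation between the 2 scales was 0.779, a description of one set of counts under 2 divisors. Rps15a, also chosen after its values were seen, is long under both (6270 and 5130 bp), which puts it at 205 and 163 TPM.

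**Figure D2:**
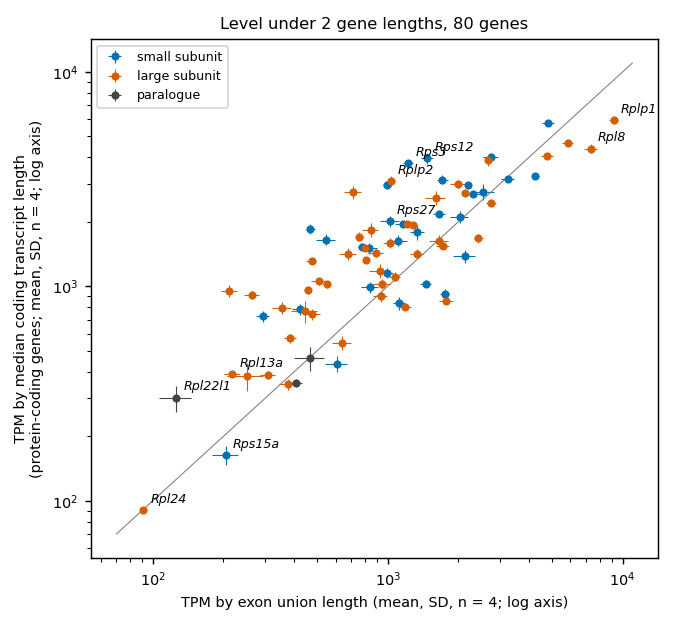
Mean TPM with the exon union length (x axis) against mean TPM with the median coding transcript length (y axis), for the 80 genes with a mean of at least 10 TPM, both on log axes, with SD bars over 4 libraries; the line marks equal values. Rps3, Rps12 and Rplp2 lie far above the line, Rplp1 and Rpl8 below it, and Rpl24 is the lowest point on both axes.

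Paralogues of ribosomal proteins are separate genes whose products can replace or resemble the standard protein, several of them known from testis or muscle. They differed in level by orders of magnitude. Rps27l, a paralogue induced by p53 in other settings, was at 405, 560, 473 and 430 TPM (467 ± 68.0) and made up 31.4 ± 2.08% of the Rps27 and Rps27l sum. Rps27 itself was at 892, 1105, 1007 and 1073 TPM (1019 ± 94.2), above its paralogue in all 4 libraries. Rpl7l1, a nucleolar assembly factor, was at 379, 432, 425 and 395 TPM (408 ± 25.2), or 17.0 ± 0.762% of its pair with Rpl7 (1997 ± 163 TPM). Rpl22l1, known to balance Rpl22 during T cell development, was at 112, 154, 120 and 117 TPM (126 ± 19.3), with Rpl22 at 335, 416, 372 and 388 TPM (378 ± 33.8). It took 24.9 ± 1.61% of the pair, and 46.2 ± 2.12% with transcript lengths. By transcript lengths Rps27l took 18.7% and Rpl7l1 10.5% of their pairs.

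Rpl39l, known for its expression in the testis, had 14, 45, 31 and 54 fragments (2.62 ± 1.11 TPM) and took 1.00 ± 0.266% of its pair, or 0.528 ± 0.141% with transcript lengths. Rpl39 was 95.6 times higher on the mean by exon union length. Rpl3l, the form of striated muscle, had 1, 0, 2 and 3 fragments, and Rpl10l, an intronless gene active in male meiosis, had 0 in all 4 libraries. A count of 0 allows up to 3 fragments, or 0.0777 to 0.0322 CPM (fragments scaled to the library total, with no division by length) from the shallowest to the deepest library. Rpl36al, a protein-coding copy of Rpl36a whose symbol falls outside the rule, was at 224 ± 16.5 TPM. Rps27rt, an Rps27 copy also outside it and named after its value was seen, was at 28.7 ± 6.07.

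Whether reads can be assigned within a pair depends on the sequence. The coding sequences of 2 pairs, from GENCODE release 21, are shown to let them be compared base by base, with the bases that differ in capitals.
Rps27: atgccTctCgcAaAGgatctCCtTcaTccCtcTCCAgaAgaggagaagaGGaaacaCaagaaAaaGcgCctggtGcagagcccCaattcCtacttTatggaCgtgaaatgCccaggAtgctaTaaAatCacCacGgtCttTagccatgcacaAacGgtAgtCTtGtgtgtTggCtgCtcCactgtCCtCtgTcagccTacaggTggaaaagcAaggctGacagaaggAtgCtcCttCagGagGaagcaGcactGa
Rps27l: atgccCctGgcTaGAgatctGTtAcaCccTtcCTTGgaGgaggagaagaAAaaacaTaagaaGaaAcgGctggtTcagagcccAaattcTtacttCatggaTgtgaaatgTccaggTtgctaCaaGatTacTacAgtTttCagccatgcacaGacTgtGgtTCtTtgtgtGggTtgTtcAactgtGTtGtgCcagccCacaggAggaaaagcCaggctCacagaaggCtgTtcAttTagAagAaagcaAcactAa
Rpl39: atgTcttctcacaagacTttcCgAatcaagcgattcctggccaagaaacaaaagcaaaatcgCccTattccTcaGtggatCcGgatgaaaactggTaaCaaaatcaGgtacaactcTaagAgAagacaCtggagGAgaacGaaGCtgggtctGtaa
Rpl39l: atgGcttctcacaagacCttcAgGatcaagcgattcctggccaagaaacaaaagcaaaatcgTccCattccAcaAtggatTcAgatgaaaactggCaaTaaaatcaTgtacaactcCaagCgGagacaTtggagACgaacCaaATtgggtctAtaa
Rps27 and Rps27l are identical at 194 of 255 bases, with differences in 54 of 85 codons and no identical stretch over 11 bases. Rpl39 and Rpl39l are identical at 133 of 156 bases, with a longest identical stretch of 38. None of the 6 pairs shares a stretch of 50 bases within the coding sequence, and their identity over aligned coding bases was between 64.8% (Rpl7 and Rpl7l1) and 85.3% (Rpl39 and Rpl39l).

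**Figure D3:**
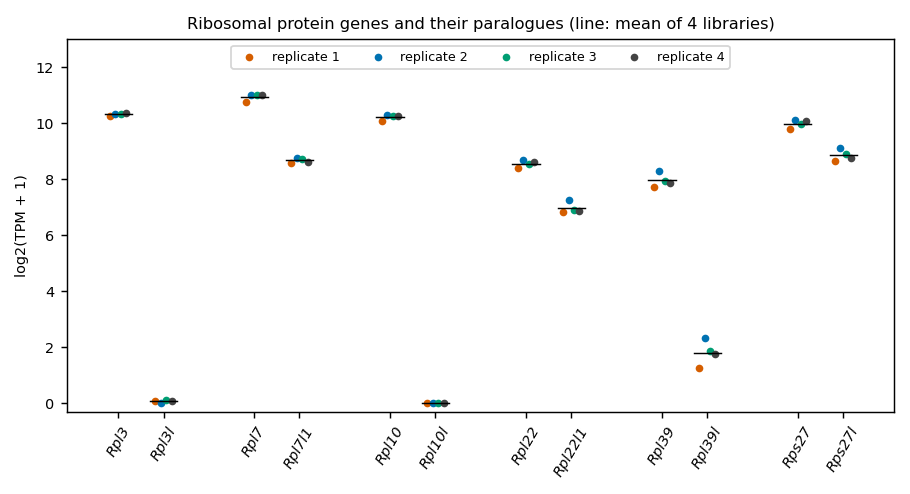
Level of each of 6 ribosomal protein genes beside its paralogue, as log2(TPM + 1), with a point for each of 4 libraries and a line at their mean. Rps27l, Rpl22l1 and Rpl7l1 lie within a few log2 units of their partners, Rpl39l lies 95.6-fold below Rpl39 by exon union length, and Rpl3l and Rpl10l lie at or near 0.

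Other copies are closer. Fragments with several mapping places, and those in exons of 2 genes on a strand, were not counted, and ribosomal protein genes have many processed pseudogenes. The tables hold 284 named pseudogenes of 59 of the members, and these took between 0.477% and 0.521% of the fragments of members and pseudogenes together. Of the 83 members, 74 share at least 1 stretch of 100 bases of their transcript with another annotated gene, with a median of 39.8% of all such stretches shared. Rps27 (98.4%), Rpl10 (91.6%) and Rpl5 (91.1%) are the most shared, and Rps3, Rpl32 and Rpl22 are among those that share none. The 33 genes with over 50% shared had a median of 847 TPM and the other 44, paralogues left out, 1151 TPM. How many fragments were lost this way cannot be read from the counts, so levels of genes with shared sequence may be understated. This also bears on the paralogue pairs. Rps27l, unlike Rps27, shares no stretch of 100 bases, so its part of that pair may be overstated. Rpl22l1 shares 50.8% and Rpl22 none, so the part of Rpl22l1 may be understated.

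Overlapping annotation touched a few members. Rpl24 (chr16:55966275-55971435, mm10) is overlapped by Gm28037 on the same strand over 47.0% of its exon bases, and Rpl13a by Gm45713, Mir5121 and Snord33 over 35.4%. Of the coding transcript, the overlapped part was larger, 71.5% in Rpl24 and 59.3% in Rpl13a. These overlapping genes had no fragment in any library, while Rpl24 was between 87.4 and 94.2 TPM in the 4 libraries (91.1 ± 3.09), the lowest level of any gene that is not a paralogue. Rpl24 and the overlapping genes were chosen after their values were seen. Fragments in the overlapped stretch were not counted for either gene, so the levels of Rpl24 and Rpl13a may be understated. In 57 members no exon base was overlapped on the same strand.

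A structural feature that the choice of genes did not use is the presence of small nucleolar RNAs, which guide modification of ribosomal RNA and are cut from introns. Of the 83 genes, 30 (36.1%) contain at least 1 annotated snoRNA, 58 snoRNAs in all, against 151 of 10302 other expressed protein-coding genes (1.47%). Hosts were 10 small and 20 large subunit genes. Rpl4 holds 5 snoRNAs and Rpl13a 4.

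The spread between libraries was compared with that of other genes in 2 ways. Over the 80 genes with a mean of at least 10 TPM, the median coefficient of variation (CV, SD over mean) of TPM was 6.55%, against 6.40% in 2165 other protein-coding genes in the same range of TPM. In the edgeR fit described next, the median ratio of a gene's dispersion to that of genes of like abundance was 1.14 in the members and 0.809 over all genes tested. The steadiest members by CV were Rps14 (2.54%), Rpl37a (2.80%) and Rpl7a (3.12%). The most variable were Rpl39 (17.2%), Rpl22l1 (15.4%) and Rps27l (14.6%).

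The test for variation asked whether a gene's spread between the 4 libraries exceeds that of genes of like abundance (edgeR quasi-likelihood fit with no contrast, Benjamini-Hochberg adjustment over all genes tested, threshold 0.05). It was run on 12396 genes, 81 of them members. Rpl3l and Rpl10l did not pass the filter on low counts. It called 58 genes (0.468%) and none of the 81 members. At an unadjusted p under 0.05 there were 7 members (8.64%), and 661 genes in all (5.33%). On counts simulated for 12326 genes, the test was tried on genes with 1 library changed. It recovered 7 of 50 genes changed 1.5-fold, 35 of 50 changed 2-fold, 46 of 50 changed 4-fold and 45 of 50 changed 8-fold. Every gene was simulated with the same dispersion (a biological CV of 10.7%), so these rates may not hold for the members. The members' median range between libraries, 0.176 on the log2 CPM scale, is smaller than a 1.5-fold change.

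The 3 members with the smallest p were the 3 most variable ones. Rpl39, a small protein of the exit tunnel, was at 213, 312, 244 and 233 TPM in replicates 1 to 4 (251 ± 43.1), with replicate 2 above the others (adjusted p = 0.203 by edgeR's quasi-likelihood test). Rps27l had an adjusted p of 0.550 and Rpl22l1 of 0.658 by the same test. In all 3, replicate 2 was the highest library, and the other three libraries lay closer together. With no filter on low counts Rpl39 was called, with an adjusted p of 0.0281. Without replicate 2 its adjusted p was 0.997, and over the 3 settings that leave out another library it was between 0.207 and 0.274.

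Members nevertheless tended to be high or low in the same libraries, by small amounts. After TMM scaling, replicate 2 held the highest value of 46 of the 81 members (background 28.5% of all 12396 genes), replicate 4 of 27 (19.8%), replicate 1 of 7 (28.6%) and replicate 3 of 1 (23.1%). Replicate 3 held the lowest value of 42 members (background 21.7%), replicate 1 of 28 (28.4%), replicate 2 of 8 (30.1%) and replicate 4 of 3 (19.9%). These counts were the same with DESeq2 size factors. With scaling to the total count the highest values fell to replicates 1 to 4 in 1, 55, 1 and 24 members and the lowest in 33, 7, 37 and 4. The median deviation of the members from their own mean was -0.03, 0.06, -0.06 and 0.03 on the log2 CPM scale in replicates 1 to 4, and that of all genes was within 0.01 of 0 in each. The median range between libraries was 0.176 in the members and 0.257 over all genes tested, most of them less abundant than the members. Beside genes of like abundance the members were not steadier. Their median dispersion ratio was 1.14, against 0.809 over all genes tested. Members are not independent of each other, and these counts carry no test.

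**Figure D4:**
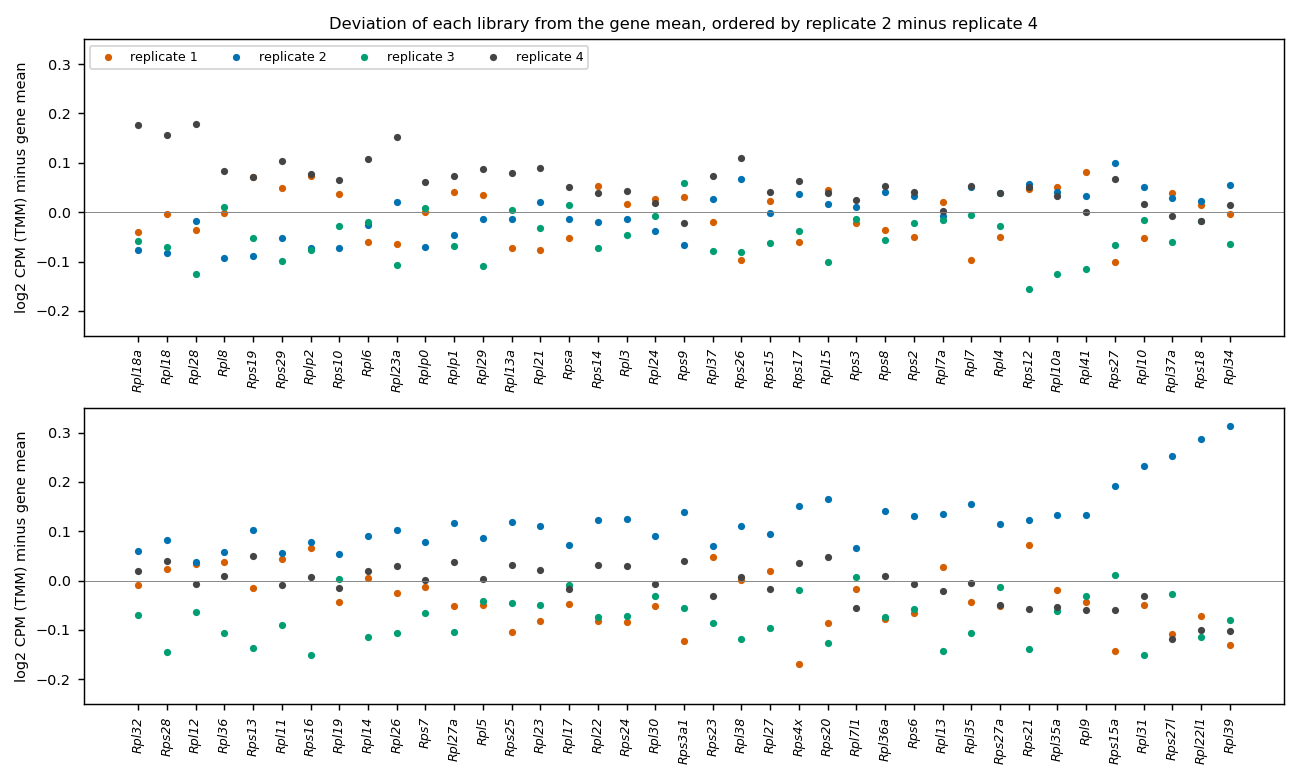
Deviation of each library (colours, replicates 1 to 4) from the gene's mean log2 CPM after TMM scaling, for 78 of the 80 members with a mean of at least 10 TPM, ordered by replicate 2 minus replicate 4 across both panels. Replicate 4 is high on the left and replicate 2 on the right, up to Rpl39, and replicate 3 is the lowest library of many genes throughout.

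The members that were high in replicate 2 and those high in replicate 4 differed in base composition. The GC content of the median coding transcript had a median of 49.6% in the 46 members highest in replicate 2 and of 54.0% in the 27 highest in replicate 4. Across the 81 members the Spearman correlation of GC content with replicate 2 minus replicate 4 was -0.513, and across 11046 tested protein-coding genes it was -0.385. These are correlations across genes within the same 2 libraries, so they describe that pair of libraries and carry no p. For replicate 3 minus replicate 2 the values were 0.393 in the members and 0.101 over all genes. Transcript length had no such relation to replicate 2 minus replicate 4 (0.00366 in the members and -0.04 over all genes). Rpl22l1, with the lowest GC content at 40.6%, was 0.39 higher in replicate 2, and Rpl18, at 58.3%, differed by -0.24. Others of high GC content went the other way: Rpl31 at 57.6% with 0.26, Rpl35 at 56.7% with 0.16 and Rpl13 at 57.1% with 0.16, and Rpl36, the highest at 60.8%, differed by 0.05. Rpl39l, at 43.1% and with few fragments, differed by 0.76. Rpl13, Rpl18, Rpl31 and Rpl35 were chosen after their values were seen. The part that base composition plays in the difference between libraries was not tested.

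**Figure D5:**
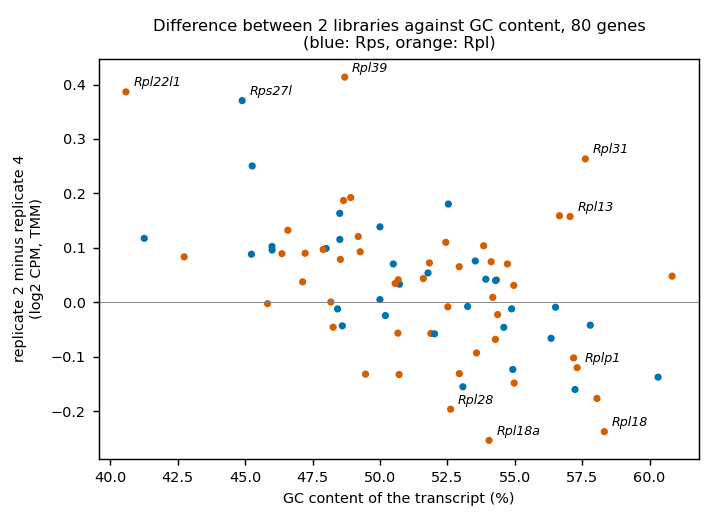
GC content of the coding transcript (x axis, percent) against replicate 2 minus replicate 4 (y axis, log2 CPM after TMM scaling), with a point for each of the 80 members with a mean of at least 10 TPM (Rpl39l is not drawn). Points scatter widely around a fall: Rpl22l1 lies at 40.6% and 0.39 and Rpl18 at 58.3% and -0.24, while Rpl36, with the highest GC content at 60.8%, lies at 0.05, and Rpl31, Rpl35 and Rpl13 lie above 0.15.

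The genes around the ribosome were expressed throughout. Outside the naming rule, further ribosome components were Fau, whose product carries a ubiquitin-like part (1663 ± 100.3 TPM), and Rack1, the scaffold on the head of the small subunit (1474 ± 79.5). All 25 genes of a translation factor list had a mean of at least 10 TPM, led by Eef1a1, which delivers aminoacyl-tRNA (9398, 11104, 11032 and 10942 TPM in replicates 1 to 4), Eef2, which moves the ribosome along (6547 ± 459), and Eif5a (3212 ± 150). All 40 ribosome biogenesis genes did too, with a median of 214 TPM, led by the nucleolar proteins Npm1 (2645 ± 314) and Ncl (1145 ± 86.6) and by Nhp2 (703 ± 32.3). Of the chaperone, growth and checkpoint list, 20 of 22 names were matched and all 20 were above 10 TPM, with a median of 112. Its highest were Myc (497 ± 13.4), a transcriptional driver of ribosome production, Cdkn1a (424 ± 23.7), a cell cycle inhibitor, and Larp1 (355 ± 18.1), which binds TOP mRNAs. The 78 mitochondrial ribosomal protein genes had a median of 86.5 TPM, led by Mrpl12 (533 ± 14.7), Mrps16 (350 ± 19.8) and Mrpl18 (324 ± 14.3). This order holds for the exon union length alone: with transcript lengths Mrps16 was at 50.3 TPM, below the list's median of 93.3. No mitochondrial ribosomal protein gene exceeded 1000 TPM, while 40 cytosolic ribosomal protein genes did.

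Of all genes on these lists, 1 passed the test for variation: Eif2s3x, the X-linked gene for a subunit of the initiation factor that brings the initiator tRNA. It was at 138, 158, 91.0 and 84.8 TPM in replicates 1 to 4, high in the same libraries as Xist (adjusted p = 2.04e-06 by edgeR's quasi-likelihood test). Its adjusted p over the alternatives ranged from 1.02e-17 to 0.997, and the call was lost only when prior degrees of freedom were lowered per gene, a setting under which no gene was called. None of the 4 X-linked ribosomal protein genes passed the test as reported (Rpl39 did with no filter on low counts), and none had its 2 highest libraries in replicates 1 and 2.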

How the data were processed

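The authors ran featureCounts 1.4.6-p4, per the file headers, on exons of GENCODE mouse release 13, counting read pairs with both ends mapped and strand setting 2. The deposited values are raw counts, and the genome is mm10 per the labels. Beyond a file name tagged star2 in the headers, the aligner's name and version are not given in the sources used here. Names and gene types came from GENCODE release 21 (50376 of 50600 IDs matched, 224 did not).

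TPM was computed from the counts and the deposited exon union lengths. Values are means ± SD over 4 libraries, with log2(TPM + 1) where logs are named. Totals were 38590127, 44357436, 48312918 and 93035969 fragments in replicates 1 to 4. Floors cover counting error only.

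The test for variation between libraries used R 4.3.3 and edgeR 4.0.16: filterByExpr, TMM scaling, a quasi-likelihood fit with an intercept alone and a robust prior, and the upper F tail, with Benjamini-Hochberg adjustment. As first run, with prior degrees of freedom lowered per gene, the test recovered 0 of 200 genes changed in simulated counts and called 0 of 12396 real genes. It was then changed to the prior degrees of freedom of the bulk of genes, with both of these counts known, and recovered 133 of 200, with 6 calls among unchanged genes. Members called were 0 either way.

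The members and lists were chosen with earlier results of these data known. The comparisons by transcript length, GC content, highest and lowest library, overlap, shared sequence and motif were chosen after values were seen. Transcript length was first taken from 1 transcript per gene and changed to the median over coding transcripts after Rps15a, Rps20 and Rps24 were seen to rest on 1 long isoform. Genes named are the 12 most abundant members, those under 10 TPM, the paralogue pairs, the 3 smallest p, the 3 highest and lowest CVs, a panel chosen for known roles, and each list's top 3 and called genes. Others are said to be chosen later. Alternatives were other scalings, filters, pseudocounts, lengths and priors, and leaving out each library. Python 3.11.15, pandas 2.3.3 and numpy 2.4.6 were used. Protein sequences were not used here. Some genes that the naming rule covers are not reported here and are left out of the plots that label every gene.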

Additional observations from a re-analysis of the deposited data

Results flagged for a closer look

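Of 91 values examined over the 4 libraries, 6 had 1 library far from the other three relative to the range, where chance gives about 1 in 20. In 4 genes replicate 1 was low: Rps2 at 4375 TPM (others 4925 to 4993), Rpl4 at 4337 (4865 to 4972), Rpl7 at 1752 (2060 to 2092) and Rps3 at 1134 (1250 to 1258). Replicate 1 is the library in which Gm42418 took 2.04% of the fragments. The part of this in the low values was not tested. Rps23 was high in replicate 2, at 1863 TPM with the others between 1702 and 1724. Rps29 was high in replicate 4, at 1076 TPM with the others between 964 and 972. Rps23 and Rps29 are named because of these values.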

How the results depend on the processing

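No paired analysis was possible because the samples form 1 group. The members' share of TPM, 11.7% as reported, was 12.5% over protein-coding genes alone, 5.47% as a share of fragments and 14.4% with transcript lengths. Their median, 981 TPM, was 1453 TPM with transcript lengths and 294 as FPKM, which is another unit. The small minus large subunit difference, 0.461 on the log2 scale, was 0.998 over all members, which adds paralogues near 0 to the large subunit, 0.366 without division by length, 0.427 with transcript lengths, 0.348 without Rpl24 and Rpl13a and 0.421 without the paralogues. The spread between members, an SD of 1.31, was 2.18 over all members, 1.19 without division by length, 1.17 with transcript lengths and 1.24 without Rpl24 and Rpl13a. No difference changed sign under these settings, and leaving out each library in turn moved these 4 values by less than 1 SD. Of the members, 1 (Rpl39) was called as varying with no filter on low counts and 0 under every other setting run, while the genes called went from 58 to 110 with no filter, to 36 with a prior that is not robust, to 0 with prior degrees of freedom lowered per gene and to between 37 and 69 with a library left out. The mean TPM of 71 of the 83 members moved by more than 1 SD with transcript lengths, and of 31 when TPM was taken over protein-coding genes alone. The settings with transcript lengths, without named genes or paralogues, and with the per-gene prior were chosen after seeing the data. The cause was not tested where none is given. The depth allows 3 fragments for Rpl10l, and does not resolve Rpl3l from 0.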
